A study of Mus musculus and Acomys cahirinus with 16 samples.

Results

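Transcripts of 10 mast cell genes were followed in 16 skin samples of 4 groups, from the laboratory mouse, Mus musculus, and the African spiny mouse, Acomys cahirinus. The genes were taken by symbol as markers of the cell: Cpa3, Cma1, Mcpt4, Tpsb2, Tpsab1, Fcer1a, Ms4a2, Hdc, Kit and Mrgprb2. All 10 had a row among the 56980 genes of the mouse table, and 8 had one among the 19818 genes of the spiny mouse table, which has no row named Tpsb2 or Tpsab1. Each species gave 4 samples of untreated skin and 4 of skin treated with DMBA/TPA, with no genotype, transgene or further agent in the labels of any group. DMBA (dimethylbenzanthracene) damages DNA and initiates skin tumours, and the phorbol ester TPA drives inflammation and growth of the epidermis. Strain, age, sex, dose and interval between treatment and sampling are not given in the labels. The series' design text speaks of irradiated fibroblasts, whereas its title and labels name treated and untreated skin, and the labels were followed. The labels do not say that replicates came from separate animals, so p-values measure the spread between these samples, which may be partly technical.

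Mast cells are tissue-resident immune cells that sit in the dermis around vessels, nerves and hair follicles. They store proteases and histamine in granules and release them when antigen crosslinks IgE on the high-affinity IgE receptor, or when cationic peptides and drugs reach the receptor Mrgprb2. Their growth and survival depend on the receptor tyrosine kinase Kit, whose ligand is made by fibroblasts, keratinocytes and endothelium.

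Promoter letters of 8 of the 10 genes were in the RefSeq promoter table (build GRCm38.p6). Each was placed in GRCm39 by an exact match of the 250 bases before the RefSeq start, unique on the gene's own chromosome. For Hdc and Kit that start lies inside the gene as counted. Mast cell genes are known targets of GATA factors, above all Gata2, so AGATAA and TGATAA were searched on both strands. At least 1 match was in the window of 5 of the 8 genes, against 16.6% of all 32851 promoter windows of that length. The letters CATGTG and CACGTG, read by the factor Mitf, were in 1 of the 8, that of Fcer1a, against 17.6% of all windows. A match describes letters only, and a window without one says nothing of the factor. Shown 5′ to 3′ in the direction of each gene are the windows of 3 genes with different roles and a match close to the start (a protease, a receptor chain and the peptide receptor), and of 2 neighbouring proteases that differ in these letters. Capitals mark AGATAA or TGATAA, or TTATCT or TTATCA where the match is on the other strand.
Cpa3: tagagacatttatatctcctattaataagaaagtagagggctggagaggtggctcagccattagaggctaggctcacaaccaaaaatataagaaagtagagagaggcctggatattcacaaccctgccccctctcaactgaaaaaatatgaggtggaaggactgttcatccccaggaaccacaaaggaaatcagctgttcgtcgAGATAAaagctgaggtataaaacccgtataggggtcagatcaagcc
Mcpt4: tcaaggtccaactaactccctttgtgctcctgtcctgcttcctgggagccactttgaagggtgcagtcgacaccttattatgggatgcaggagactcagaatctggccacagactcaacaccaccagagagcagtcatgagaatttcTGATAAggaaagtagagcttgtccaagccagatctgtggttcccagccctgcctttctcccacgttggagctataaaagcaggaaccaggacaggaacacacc
Ms4a2: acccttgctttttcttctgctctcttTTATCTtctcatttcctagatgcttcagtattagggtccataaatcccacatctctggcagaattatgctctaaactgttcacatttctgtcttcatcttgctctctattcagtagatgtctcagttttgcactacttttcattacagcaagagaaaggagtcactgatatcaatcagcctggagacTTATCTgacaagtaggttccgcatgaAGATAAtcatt
Mrgprb2: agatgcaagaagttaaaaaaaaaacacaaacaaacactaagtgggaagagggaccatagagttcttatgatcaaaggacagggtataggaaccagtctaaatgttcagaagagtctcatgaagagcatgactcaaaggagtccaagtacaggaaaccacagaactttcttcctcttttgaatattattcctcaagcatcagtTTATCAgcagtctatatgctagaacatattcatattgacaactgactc
Cma1: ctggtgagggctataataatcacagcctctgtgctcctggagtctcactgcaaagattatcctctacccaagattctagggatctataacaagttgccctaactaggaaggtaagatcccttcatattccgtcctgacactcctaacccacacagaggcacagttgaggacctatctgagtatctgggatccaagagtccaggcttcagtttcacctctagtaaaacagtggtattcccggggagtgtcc
The Cpa3 window lies at chr3:20296346-20296595 (GRCm39, minus strand), with AGATAA from 46 to 41 bases before the start. That of Mcpt4 lies at chr14:56299768-56300017 (minus strand), with TGATAA from 103 to 98 bases before the start. The Ms4a2 window, at chr19:11601084-11601333 (minus strand), holds AGATAA at 3 places, of which the nearest runs from 11 to 6 bases before the start. In the Mrgprb2 window, at chr7:48207835-48208084 (minus strand), TGATAA on the opposite strand covers 48 to 43 bases before the start. Cma1, at chr14:56182133-56182382 (minus strand), has neither set of letters in its window.

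Total counts ran from 19608787 to 30198281 per mouse sample and from 21143918 to 30561256 per spiny mouse sample. Levels are counts per library total in the usual unit (CPM), scaled by edgeR's TMM factors, and 3 counts correspond to 0.109 to 0.158 CPM in mouse and 0.102 to 0.137 CPM in spiny mouse, for counting error only. Every sample carried the epidermal markers of skin, with summed levels of 5 keratinocyte genes between 6182 and 29090 CPM. Skeletal muscle markers were present too and were lower after treatment in both species, at 7586 to 9846 CPM against 1780 to 2337 CPM in mouse (6 genes, summed). Untreated mouse replicate 2 stood apart from the other untreated mouse samples: 6 genes of growing hair follicles summed to 2240 CPM there, against 10.1 to 36.7 CPM in the other 3. The column name of that sample also carries a suffix that the other mouse columns lack. All 4 treated mouse samples held 19880 to 21850 CPM of these hair genes. In spiny mouse the hair sum ran from 1093 to 11110 CPM in untreated and from 189.6 to 3231 CPM in treated skin. The part of hair growth, muscle and other tissue in the mast cell results was not tested. Fold changes of mast cell genes that rest on untreated mouse replicate 2 are given with and without it.

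In mouse skin the granule proteases were lower on average after treatment, without passing the test, while Kit rose 2.26-fold and Mrgprb2 fell 14.3-fold. In spiny mouse skin the histamine-forming enzyme gene Hdc rose 2.78-fold, Ms4a2 1.80-fold and the chymase gene Cma1 1.56-fold, and Kit was 1.2-fold lower. Genes were called by the quasi-likelihood test of edgeR at a Benjamini-Hochberg adjusted p under 0.05 over all genes tested. Of 9 mast cell genes tested in mouse, 2 were called (22.2%), 1 higher and 1 lower, where 61.2% of all 19740 genes tested were called, 25.9% higher and 35.3% lower. Of 6 tested in spiny mouse, 4 were called (66.7%), 3 higher and 1 lower, against 55.1% of 14833 genes, 28.2% higher and 26.9% lower. Median log2 fold changes were -0.44 over the 9 mouse genes and 0.47 over the 6 spiny mouse genes, where all genes tested had medians of -0.15 and -0.01. The members tested are those with enough counts, and no count over them speaks for the genes that were not tested. In whole skin, fewer mast cells and less RNA per cell cannot be told apart.

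**Figure D1:**
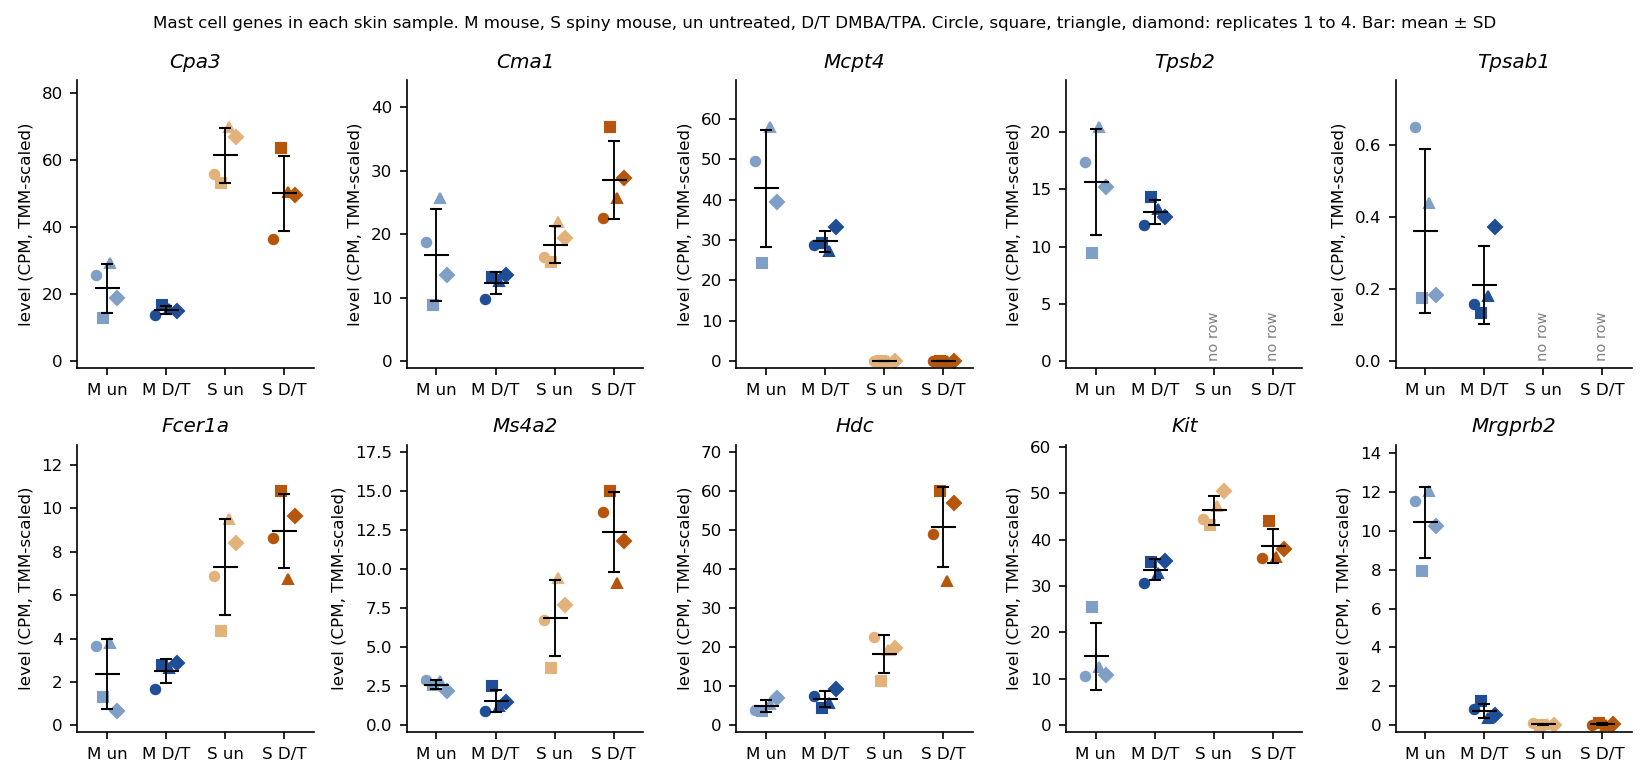
Level of each of the 10 mast cell genes (y axis, TMM-scaled CPM, linear from 0, a separate scale for each gene) in the 4 groups of 4 samples (x axis). Each point is 1 sample, with replicates 1 to 4 as circle, square, triangle and diamond, and bars give the mean ± SD. Mrgprb2 drops to 0.36 to 1.23 CPM in treated mouse skin, and Hdc reaches 37.0 to 59.9 CPM in treated spiny mouse skin. Among the untreated mouse samples, replicate 2 (light blue square) is lowest for Cpa3, Cma1, Mcpt4 and Tpsb2 and highest for Kit.

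Carboxypeptidase A3, the product of Cpa3, trims peptides in the granule and is among the most mast cell-restricted transcripts. Its level in untreated mouse replicates 1 to 4 was 25.7, 12.85, 29.2 and 18.7 CPM (21.6 ± 7.28, SD, n = 4), and after treatment 13.65, 16.75, 15.5 and 14.96 CPM (15.2 ± 1.29). Untreated samples were spread over more than the whole treated range, with replicate 2 below all treated samples and the other 3 above them. Its log2 fold change of -0.51 (SE 0.228) did not pass (edgeR quasi-likelihood adjusted p = 0.0796). Without untreated replicate 2 it was -0.60 (SE 0.136) and passed at an edgeR adjusted p of 0.00228. In spiny mouse Cpa3 stood at 55.8, 53.0, 69.9 and 67.0 CPM untreated and at 36.5, 63.7, 50.4 and 49.4 CPM treated, so that the groups overlapped through treated replicate 2. There the log2 fold change was -0.30 (SE 0.160) with an edgeR adjusted p of 0.143, and -0.43 with an adjusted p of 0.0368 once treated replicate 2 was left out of the edgeR fit.

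Chymases cleave angiotensin, matrix proteins and venom peptides. Mcpt4, the main chymase of mouse connective tissue mast cells, and Cma1, another chymase of the same locus, lie on mouse chromosome 14. Mcpt4 had 49.5, 24.3, 58.0 and 39.45 CPM in untreated mouse skin and 28.7, 29.3, 27.3 and 33.2 CPM in treated skin. Cma1 had 18.8, 8.77, 25.8 and 13.5 CPM untreated and 9.82, 13.2, 12.6 and 13.5 CPM treated. Both were laid out much as Cpa3 was, with untreated replicate 2 below all treated samples and replicates 1 and 3 above them. Neither passed: on the log2 scale Mcpt4 was at -0.53 (SE 0.229, edgeR adjusted p = 0.0685) and Cma1 at -0.44 (SE 0.289, adjusted p = 0.207). Without untreated replicate 2 both were called lower by edgeR, Mcpt4 at -0.63 (adjusted p = 0.000691) and Cma1 at -0.56 (adjusted p = 0.019).

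In spiny mouse Cma1 rose. It had 16.3, 15.6, 21.9 and 19.5 CPM in untreated skin and 22.6, 36.95, 25.65 and 28.8 CPM in treated skin. All 4 treated samples lay above all 4 untreated ones, and treated replicate 2 was highest. Its log2 fold change was 0.64 (SE 0.164, edgeR adjusted p = 0.00911), and it passed in each of 15 alternative fits, at values from 0.50 to 0.74. Cma1 and Hdc were the 2 of 6 genes whose treated samples all lay higher, a layout that 26.7% of all genes tested showed, and none of the 6 had all treated samples lower, a layout shown by 24.1%.

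Mcpt4 cannot be read in spiny mouse. Its row holds 0 counts in all 8 samples, but 100% of its exon bases on scaffold_6 (63733179 to 63735767, plus strand, AcoCah2) are shared with 4 other annotated protease genes, Mcpt9, Mcpt1, Cma2 and Mcpt2. Read pairs falling on several genes were not counted, so the 0 is no level. These 4 neighbours had at most 4 counts in any spiny mouse sample.

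Tryptases are the other main class of granule protease. Tpsb2, the tryptase of mouse connective tissue mast cells, had 17.4, 9.47, 20.5 and 15.2 CPM in untreated mouse skin and 11.9, 14.4, 13.3 and 12.55 CPM in treated skin. As with Cpa3 and Mcpt4, untreated replicate 2 lay below the treated range and the other 3 above it. Its log2 fold change of -0.26 (SE 0.211) did not pass (edgeR adjusted p = 0.297), and without that sample it was -0.35 with an edgeR adjusted p of 0.0198. Tpsab1, a neighbouring tryptase gene, had 3 to 16 counts per mouse sample, or 0.132 to 0.651 CPM, and was not tested. The longest stretch shared by Tpsb2 and Tpsab1 transcripts in the GENCODE annotation was 39 bases, and that shared by Cma1 and Mcpt4 was 27 bases.

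Proportions among the proteases were compared within samples. In mouse, taken as a log2 ratio to Cpa3 in the same sample, Mcpt4 stood between 0.92 and 1.08 untreated and between 0.81 and 1.15 treated. For Cma1 the ratio ran from -0.55 to -0.18 untreated and from -0.48 to -0.15 treated. Both pairs of groups overlapped, and treated medians were 0.983 times (Mcpt4) and 1.10 times (Cma1) the untreated ones. Tpsb2 moved apart from Cpa3 a little, from between -0.57 and -0.30 to between -0.25 and -0.20, a 1.19-fold higher median without overlap. In spiny mouse the ratio of Cma1 to Cpa3 moved from between -1.78 and -1.67 to between -0.97 and -0.69, a 1.98-fold higher median without overlap. These ratios describe the samples and were not tested.

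Fcer1a encodes the chain of the high-affinity IgE receptor that binds IgE, and Ms4a2 the chain that amplifies its signal. In mouse, Fcer1a had 3.66, 1.32, 3.81 and 0.683 CPM untreated and 1.68, 2.77, 2.66 and 2.90 CPM treated. Untreated samples lay on both sides of the treated ones, and the log2 fold change was 0.07 (SE 0.488, edgeR adjusted p = 0.903). Its sign turned under 4 alternatives, among them upper-quartile scaling (-0.12) and library size alone (-0.15). Mouse Ms4a2 had 2.89, 2.59, 2.82 and 2.19 CPM untreated and 0.945, 2.55, 1.27 and 1.52 CPM treated, where treated replicate 2 alone reached the untreated range. Its log2 fold change of -0.73 (SE 0.305) did not pass (edgeR adjusted p = 0.0611), and without that sample it was -0.97 with an edgeR adjusted p of 0.0178.

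Spiny mouse skin had Fcer1a at 6.91, 4.36, 9.50 and 8.41 CPM untreated and at 8.64, 10.8, 6.77 and 9.64 CPM treated. These groups overlapped, and the log2 fold change of 0.30 (SE 0.235) did not pass (edgeR adjusted p = 0.308). Ms4a2 was higher after treatment, at 6.74, 3.65, 9.46 and 7.73 CPM untreated and 13.7, 15.01, 9.11 and 11.8 CPM treated. Only treated replicate 3 lay within the untreated range, just below untreated replicate 3. The log2 fold change was 0.85 (SE 0.267, edgeR adjusted p = 0.0232). This call rested on single samples: leaving out untreated replicate 1, treated replicate 1 or treated replicate 2 gave 0.83, 0.80 and 0.75 with edgeR adjusted p of 0.0559, 0.054 and 0.0585.

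Hdc encodes histidine decarboxylase, the enzyme that makes histamine. In mouse it had 4.03, 3.68, 5.46 and 6.92 CPM untreated and 7.56, 4.40, 5.78 and 9.21 CPM treated. The groups overlapped, and the log2 fold change of 0.42 (SE 0.277) did not pass (edgeR adjusted p = 0.209). In spiny mouse Hdc had 22.5, 11.3, 19.2 and 19.8 CPM untreated and 48.9, 59.9, 37.0 and 56.9 CPM treated. The lowest treated sample lay above the highest untreated one, and the log2 fold change, 1.48 (SE 0.219, edgeR adjusted p = 0.000501), passed in each of 15 alternative fits. Relative to Cpa3 in the same sample, the median of Hdc rose 3.65-fold.

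Hdc is also known in basophils and neutrophils, and Fcer1a and Ms4a2 in basophils. All 4 basophil markers tested in spiny mouse rose: Prss34, a basophil granule protease gene, by a log2 fold change of 1.87, Il3ra by 1.03, Mcpt8 by 0.99 and Itga2 by 0.51. Of all genes tested in spiny mouse, 28.2% were called higher. The summed level of 4 basophil genes ran from 33.7 to 39.6 CPM in untreated and from 58.9 to 79.6 CPM in treated spiny mouse skin. Most of that sum was Itga2, which is not specific to basophils, and Il3ra. Their average log2 CPM was 4.74 and 4.22, against 2.1 for Prss34 and 0.75 for Mcpt8. Mcpt8, the defining protease of mouse basophils, had 0.885 to 1.55 CPM in spiny mouse before and 1.90 to 2.24 CPM after treatment. Of 7 neutrophil markers tested in spiny mouse, 5 were higher, Camp was lower (-0.73, edgeR adjusted p = 0.0217) and Mmp8 was not called. Their sum over 8 genes went from 92.3 to 134.7 CPM untreated to 2246 to 2590 CPM treated, of which S100a8 and S100a9, also made by keratinocytes, gave 1495 to 1857 CPM and 618 to 703.2 CPM. The part of these cells in the rise of Hdc and Ms4a2 was not tested. In mouse 5 of 5 neutrophil markers tested were higher, where 25.9% of all genes were called higher. The list sum there went from 9.65 to 38.4 CPM to 845.2 to 1749 CPM. Most of it was again S100a8 and S100a9, with average log2 CPM of 8.5 and 8.21. Those of Cxcr2, Csf3r and Mmp8 were 2.95, 3.06 and 0.11. Mouse Mcpt8 had 1, 1, 0 and 3 counts untreated and 20, 23, 23 and 11 counts treated, so all treated samples were higher, but it was too low to be tested. Mouse Prss34 had 0 to 3 counts per sample. The summed mouse basophil genes ran from 43.9 to 51.5 CPM untreated and from 32.3 to 41.5 CPM treated, and most of that sum was Itga2, which is not specific to basophils (31.5 to 41.95 CPM and 20.9 to 26.7 CPM).

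**Figure D2:**
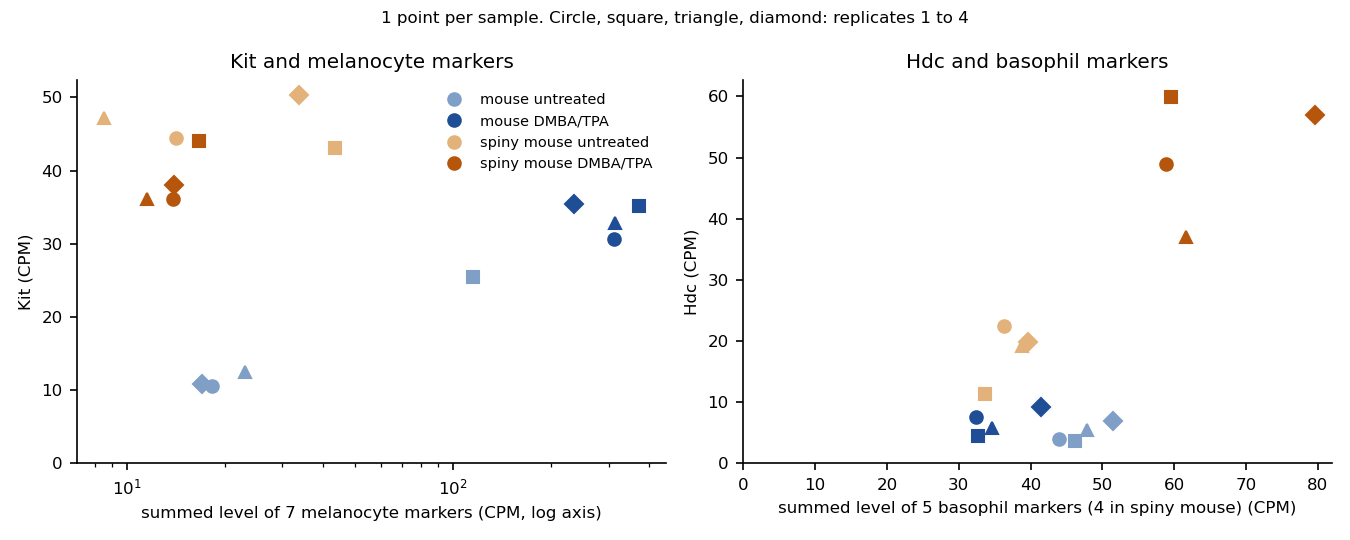
Left: level of Kit (y axis, CPM) against the summed level of 7 melanocyte markers (x axis, CPM, log axis) in all 16 samples. Right: level of Hdc (CPM) against the summed level of basophil markers (CPM, linear axis, 5 genes in mouse and 4 in spiny mouse). Itga2, which is not specific to basophils, is among the genes summed in both species. Colours mark the 4 groups and shapes the replicates. The 5 mouse samples with the most melanocyte signal are also the 5 with the most Kit, and within spiny mouse the 4 treated samples are higher than the 4 untreated ones on both axes of the right panel.

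Kit encodes the receptor for stem cell factor. In mouse it had 10.5, 25.5, 12.5 and 10.8 CPM untreated and 30.7, 35.1, 32.9 and 35.4 CPM treated. Treated samples all lay above untreated ones, and untreated replicate 2 stood far above the other 3 of its group. The log2 fold change was 1.18 (SE 0.269, edgeR adjusted p = 0.00457), and without untreated replicate 2 it was 1.66 (SE 0.0975, adjusted p = 8.64e-08 by edgeR). Kit was the 1 of 9 mouse genes with all treated samples higher, a layout found in 26.6% of all genes tested. Kit is also a gene of melanocytes, and 6 of 7 melanocyte markers tested in mouse rose, where 25.9% of all genes were called higher. The median log2 fold change over the 7 was 3. Sox10 was the marker not called, at -0.16 (edgeR adjusted p = 0.475). Summed over the 7 markers, replicates 1 to 4 held 18.3, 115, 23.0 and 17.0 CPM untreated and 312.1, 372.6, 314.1 and 235.5 CPM treated. Dct, which encodes a pigment synthesis enzyme, ran from 4.52 to 37.7 CPM untreated, highest in replicate 2, and from 71.8 to 114.5 CPM treated. The part of melanocytes and of growing hair in the Kit values was not tested.

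Spiny mouse Kit had 44.5, 43.1, 47.1 and 50.4 CPM untreated and 36.1, 44.1, 36.2 and 38.0 CPM treated. Treated replicate 2 lay within the untreated range, and the other 3 lay below it. The log2 fold change of -0.26 (SE 0.0864) passed (edgeR adjusted p = 0.0281), but the call was lost when untreated replicate 3 or 4, or treated replicate 1, 3 or 4, was left out. Those fits gave -0.25, -0.22, -0.23, -0.23 and -0.24, with edgeR adjusted p between 0.056 and 0.0796. The 6 melanocyte markers tested in spiny mouse had log2 fold changes from -1.24 to -0.17, with edgeR adjusted p of 0.0973 or more. Summed levels of the list ran from 8.51 to 43.5 CPM untreated and from 11.6 to 16.6 CPM treated. Kitl, the ligand gene, was not called in either species, with log2 fold changes of 0.08 in mouse (edgeR adjusted p = 0.659) and -0.05 in spiny mouse (edgeR adjusted p = 0.684).

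Mrgprb2 encodes the mast cell receptor for cationic peptides and many drugs, the mouse counterpart of human MRGPRX2, and in mouse it marks connective tissue mast cells. It had 11.5, 7.94, 12.0 and 10.25 CPM in untreated mouse skin and 0.840, 1.23, 0.364 and 0.520 CPM in treated skin, or 181 to 328 counts against 10 to 28. The groups were far apart, with every treated sample below every untreated one. The log2 fold change was -3.84 (SE 0.343, edgeR adjusted p = 3.09e-05), and it passed in each of 15 alternative fits, at values from -4.11 to -3.57. Mrgprb2 was the 1 of 9 mouse genes with all treated samples lower, a layout found in 32.0% of all genes tested. Relative to Cpa3 in the same sample, its median fell to 0.0934 of the untreated median. In spiny mouse the row named Mrgprb2 had 0 to 3 counts per sample, at or under the floor in both groups, and no fold is given.

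Neighbouring genes were examined after the fall of Mrgprb2 was seen. Mouse Mrgprb2 lies on chromosome 7 (48200713 to 48207834, minus strand, GRCm39) in a cluster of related receptor genes and pseudogenes. Those nearest on the higher-coordinate side fell with it: Mrgprb9-ps by 5.07, Mrgprb3 by 5.47 and Mrgprb11-ps by 6.33 on the log2 scale, with edgeR adjusted p of 4.72e-05, 0.000106 and 0.000132. In treated samples these 3 genes had 0 to 23 counts, so the size of each fall is uncertain. Mrgprb3 had 16.1, 7.54, 18.3 and 21.1 CPM untreated and 0.473, 0.659, 0 and 0.334 CPM treated. Mrgprb11-ps, an annotated pseudogene, had 42.3, 11.7, 39.5 and 40.6 CPM untreated and 1.21, 0.308, 0 and 0.297 CPM treated. The lowest coordinates of these 3 genes lie 39.8, 91.8 and 133.7 kb from that of Mrgprb2. On the other side, Mrgprb1, whose lowest coordinate lies at -106.9 kb, fell by 1.29 (edgeR adjusted p = 0.00176), from between 4.01 and 8.10 CPM to between 2.15 and 3.20 CPM. The next 6 annotated Mrgprb genes had at most 2 counts in any mouse sample. Mrgprb2 shares runs of 20 to 36 bases with transcripts of these 4 neighbours, and pairs mapping to several places were not counted.

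The related spiny mouse rows with enough counts did not pass the test. Mrgprb3 had 2.26 to 4.32 CPM untreated and 2.96 to 4.20 CPM treated (log2 fold change -0.03, SE 0.214, edgeR adjusted p = 0.918). Mrgprb8 changed by 0.88 on the log2 scale (edgeR adjusted p = 0.0603) and Mrgprx2 by 0.63 (edgeR adjusted p = 0.148), so neither passed. The mouse row named Mrgprx2 was lower after treatment, with a log2 fold change of -1.40 (edgeR adjusted p = 0.0134). It had 1.26 to 2.015 CPM untreated and 0.327 to 1.10 CPM treated. Whether a row of this family name in spiny mouse is the counterpart of the mouse gene of that name was not established, and the difference between the species was not tested for these genes.

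**Figure D3:**
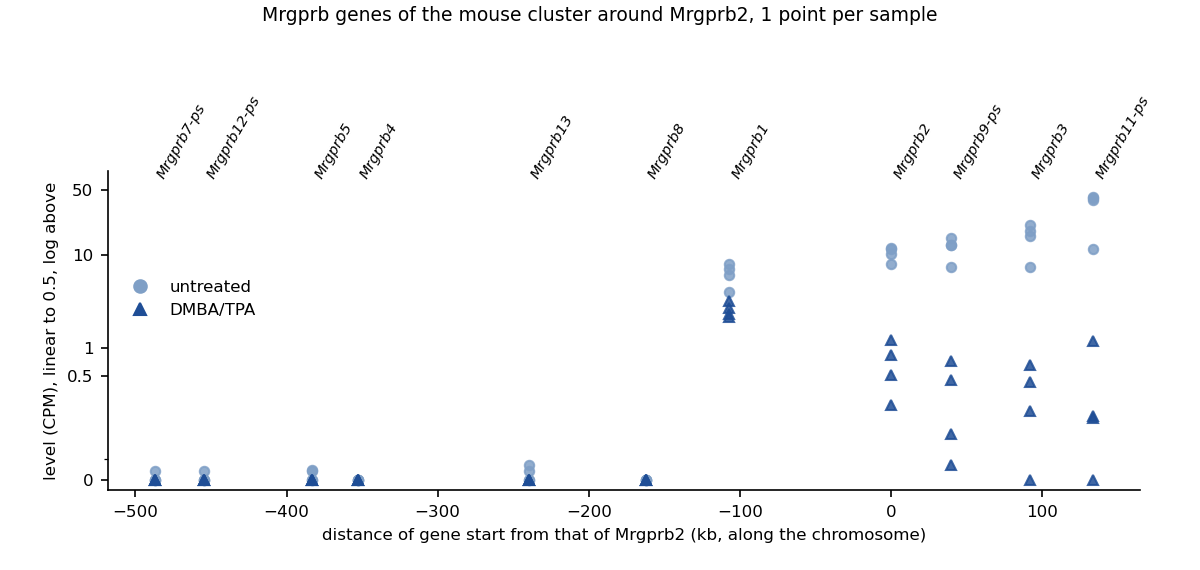
Level of each annotated Mrgprb gene of the mouse cluster (y axis, CPM, linear up to 0.5 and logarithmic above) against its distance from Mrgprb2 (x axis, kb along the chromosome). Distances are between lowest coordinates, labelled gene start on the axis, whichever strand the gene is on. Each point is 1 mouse sample, with circles for untreated and triangles for treated skin. Mrgprb2 and the 3 genes 39.8 to 133.7 kb beyond it are at 7.50 CPM or more in every untreated sample and at 1.23 CPM or less in every treated one.

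The interaction term of edgeR asked whether treatment acted differently in the 2 species, and compares changes rather than levels. Of 6 mast cell genes tested, 4 were called (66.7%), 3 with a more positive signed change in spiny mouse and 1 with a less positive one. Of 13656 shared genes 46.1% were called, 21.4% more positive and 24.7% less positive in spiny mouse. Ms4a2 differed by 1.58 (SE 0.410, edgeR adjusted p = 0.00547), with a value below 0 in mouse and a rise in spiny mouse. Kit differed by -1.44 (SE 0.295, edgeR adjusted p = 0.00103), and by -1.92 without untreated mouse replicate 2. Cma1 differed by 1.08 (SE 0.354, edgeR adjusted p = 0.0203) and Hdc by 1.05 (SE 0.363, edgeR adjusted p = 0.0272). Genes were matched by symbol alone, and whether the spiny mouse row named Cma1 is the counterpart of mouse Cma1 was not established. Cpa3 and Fcer1a did not pass, at 0.21 (SE 0.294, edgeR adjusted p = 0.584) and 0.23 (SE 0.548, edgeR adjusted p = 0.761), and neither result shows that the species act alike.

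The Cma1 and Hdc differences were lost when certain single samples were left out. Without untreated mouse replicate 3 they were 0.73 and 0.94, with edgeR adjusted p of 0.0556 and 0.0586. The Hdc difference was also lost without untreated mouse replicate 4 (0.86), treated mouse replicate 2 (0.80) or 3 (0.96), or treated spiny mouse replicate 2 (0.97), with edgeR adjusted p between 0.053 and 0.079. Those of Ms4a2 and Kit passed in each of 23 alternative fits.

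**Figure D4:**
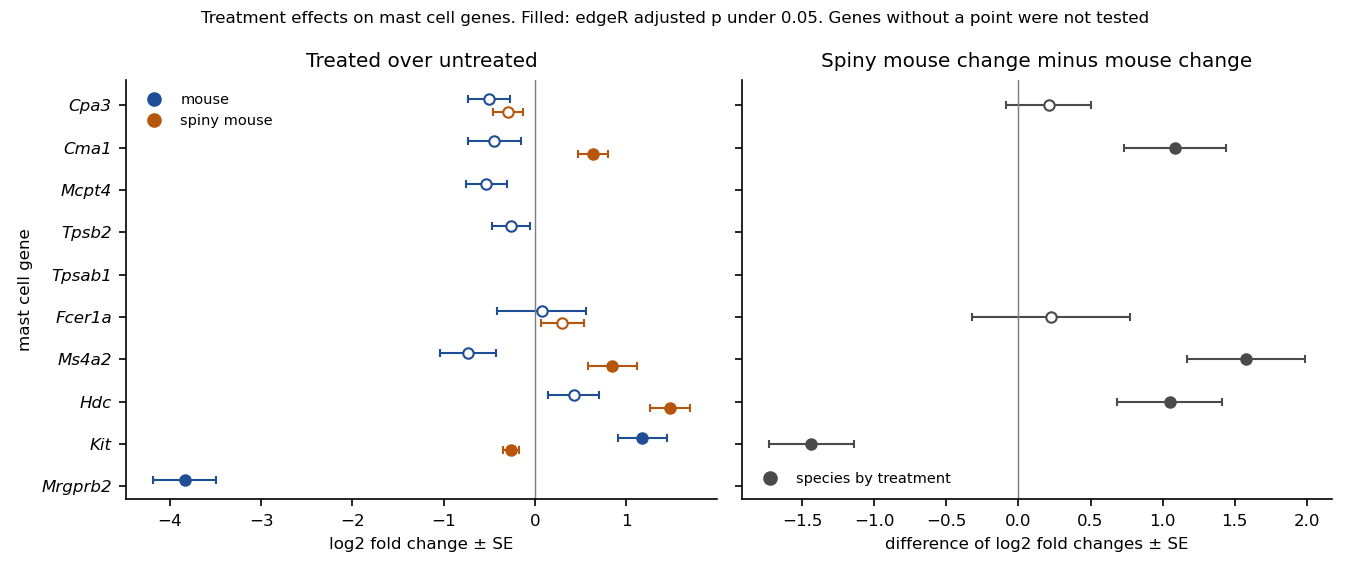
Left: log2 fold change, treated over untreated, ± SE for each mast cell gene (y axis) in mouse and spiny mouse. Right: the spiny mouse change minus the mouse change ± SE. Filled points have an edgeR adjusted p under 0.05, and genes without a point were not tested. Mouse Mrgprb2 lies at -3.84, the points of Cma1 and Ms4a2 fall on opposite sides of 0 in the 2 species, and so do those of Kit.

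Levels of different genes can be compared per kilobase of annotated exon. In untreated mouse skin the order of mean level in CPM per kb was Mcpt4 (38.6), Cma1 (15.3), Cpa3 (14.25), Tpsb2 (9.81), Mrgprb2 (5.02), Fcer1a (2.37), Kit (1.67), Ms4a2 (0.932), Hdc (0.786) and Tpsab1 (0.173). Over the 4 samples the ranges of neighbours overlapped for Mcpt4 with Cma1, among Cma1, Cpa3 and Tpsb2, for Fcer1a with Kit, and for Ms4a2 with Hdc. In untreated spiny mouse skin the order was Cpa3 (42.3), Cma1 (17.0), Kit (8.79), Hdc (6.96), Fcer1a (6.52), Ms4a2 (4.27) and Mrgprb2 (0.0509). Here the ranges of Kit, Hdc, Fcer1a and Ms4a2 each overlapped the next in order, while Cpa3 and Cma1 stood clear. After treatment the mouse order was Mcpt4 (26.7), Cma1 (11.3), Cpa3 (10.0), Tpsb2 (8.17), Kit (3.76), Fcer1a (2.505), Hdc (1.05), Ms4a2 (0.559), Mrgprb2 (0.356) and Tpsab1 (0.101). Mrgprb2 thus went from the fifth place to the ninth, where its range overlapped those of both neighbours, and Kit went from the seventh to the fifth, clear of both. In treated spiny mouse skin Hdc (19.4) came after Cpa3 (34.4) and Cma1 (26.5) and before Fcer1a (8.01), Ms4a2 (7.685) and Kit (7.33). Its range of 14.1 to 22.9 CPM per kb overlapped that of Cma1 (21.0 to 34.3), and those of Fcer1a, Ms4a2 and Kit overlapped each other. The 2 tables were counted and normalised on different genomes and annotations, so the levels themselves are not compared between species.

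Other genes of mast cell biology were read from lists chosen by knowledge of the cell. Of 22 further mast cell genes, 16 were tested in mouse, with 2 higher and 7 lower, and 13 in spiny mouse, with 5 higher and 2 lower, numbers not far from the 61.2% and 55.1% of all genes called. Their median log2 fold changes were -0.29 and 0.17, where the medians of all genes tested were -0.15 and -0.01. In mouse the largest changes were those of Hpgds, the prostaglandin D2 synthase (-1.86, from 38.8 to 66.5 CPM untreated to 13.9 to 18.2 CPM treated), Slc45a3 (1.63) and Adora3, an adenosine receptor gene (-1.46). Gata2, which encodes a GATA factor, fell by 1.02 in mouse (edgeR adjusted p = 0.000304), from 7.61 to 9.25 CPM to 3.89 to 4.40 CPM. Spiny mouse Gata2 had 11.7 to 15.9 CPM untreated and 15.7 to 27.1 CPM treated, and rose by 0.61 (edgeR adjusted p = 0.0132). The difference between the species in Gata2 was 1.63 (edgeR adjusted p = 2.93e-05). The part of Gata2 in the changes of the mast cell genes was not tested. The largest spiny mouse changes were in Srgn, the proteoglycan that holds granule proteases and is made by most leukocytes (2.61, from 32.9 to 37.5 CPM to 180.5 to 300.0 CPM), Gata1 (1.52) and Mitf (-0.65).

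Genes that carry the signal of the IgE receptor made up the next list. Of 14 tested in mouse, 2 were higher, 6 lower and 6 not called, with a median log2 fold change of -0.37, where 61.2% of all genes were called. In spiny mouse 11 of 14 were higher and the other 3 were not called, with a median of 1.01, where 28.2% of all genes were called higher. By the interaction test of edgeR 11 of the 14 had a more positive signed change in spiny mouse than in mouse, and 1 a less positive one. Of all shared genes 21.4% and 24.7% were called in these directions. Gab2 was among the 11, although it changed more in mouse (-0.68) than in spiny mouse (-0.19, not called). Plcg2 rose in both species, by 0.70 in mouse and 0.54 in spiny mouse. Among those with large changes were Lat2 (-1.31) and Fyn (0.98) in mouse, and Fcer1g (1.81) and Lcp2 (1.29) in spiny mouse. Most of these genes serve other leukocytes too. All 4 pan-leukocyte markers rose in spiny mouse, where their sum ran from 168.8 to 216.9 CPM untreated and from 448.8 to 666.5 CPM treated. In mouse Ptprc fell, the other 3 were not called, and the sums overlapped, at 151.9 to 348.2 CPM untreated and 142.5 to 193 CPM treated. Macrophage markers had 5 of 7 higher in spiny mouse and 2 of 7 lower in mouse. The part of these cells in the IgE signalling genes was not tested.

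Among 9 genes of growth factors and cytokines that act on mast cells, 3 of 6 tested were higher and 1 lower in mouse, and 4 of 7 were higher and the other 3 not called in spiny mouse, beside 61.2% and 55.1% of all genes called. Il33, an alarmin of keratinocytes that activates mast cells, rose in both, by 1.80 in mouse and 1.2 in spiny mouse (edgeR adjusted p = 0.00182 and 0.00186). In spiny mouse Il4 had 3, 1, 1 and 4 counts untreated and 59 or more counts in each treated sample (2.16 to 4.25 CPM), and rose (edgeR adjusted p = 2.96e-05). No fold is given, since the untreated samples lay near the floor of 3 counts. Il13 rose there by 2.38, from 0.320 to 1.09 CPM to 2.12 to 4.61 CPM. Mouse Il4 fell by 0.94 (edgeR adjusted p = 0.0267), and mouse Tslp rose by 1.23 (edgeR adjusted p = 0.0264), each with overlapping groups.

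Receptors and enzymes on the receiving side of histamine and tryptase were also listed. In mouse 1 of 4 tested was higher and 2 lower, and in spiny mouse 2 of 6 were higher and 1 lower, beside the same 61.2% and 55.1% of all genes. The histamine receptor gene Hrh2 fell by 0.92 in mouse (edgeR adjusted p = 0.0272) and rose by 1.85 in spiny mouse (edgeR adjusted p = 6.39e-05), where it went from 2.54 to 3.27 CPM to 7.72 to 13.5 CPM. Hnmt, which breaks histamine down, fell by 1.71 in mouse (edgeR adjusted p = 0.00292) and had a log2 fold change of 0.09 in spiny mouse (edgeR adjusted p = 0.391). F2rl1, the receptor cleaved by tryptase, rose in both, by 0.71 and 1.27. Hrh3 fell by 2.09 in spiny mouse, from 1.53 to 2.29 CPM to 0.182 to 0.769 CPM.

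**Figure D5:**
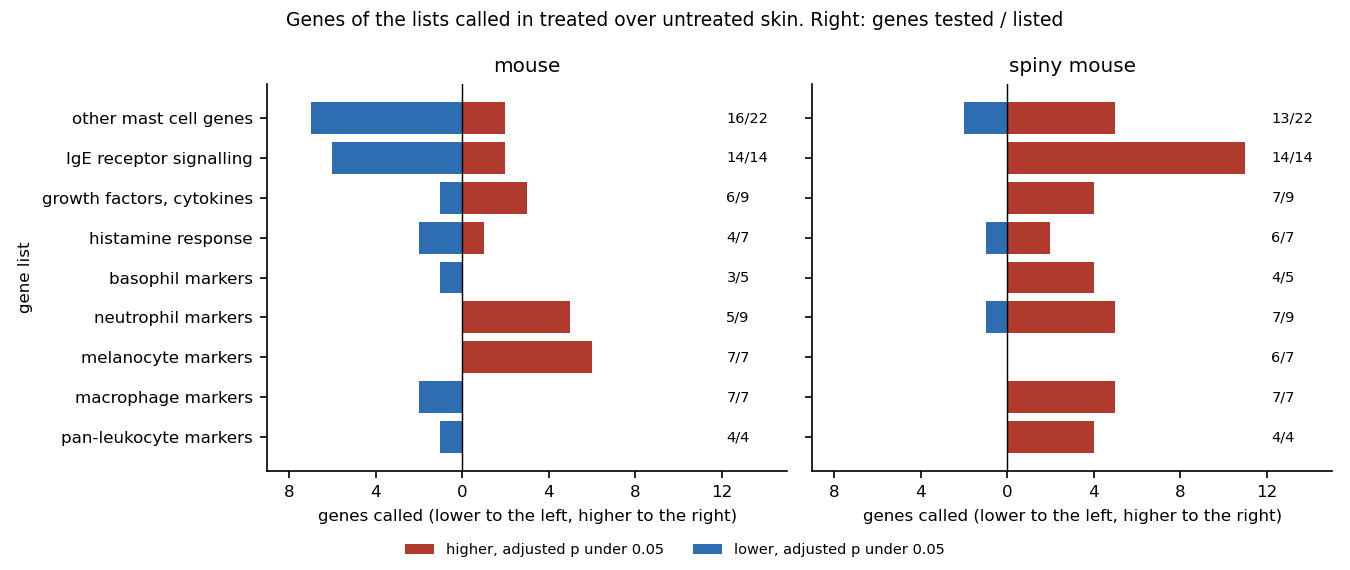
Number of genes called by edgeR (x axis, adjusted p under 0.05, lower to the left in blue and higher to the right in red) for each gene list (y axis), in mouse and in spiny mouse, with genes tested and listed at the right. IgE receptor signalling has 6 genes lower and 2 higher in mouse and 11 higher in spiny mouse, beside 4 of 4 pan-leukocyte markers higher in spiny mouse.

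Genes outside the list were ranked by likeness to the mast cell genes. The measure was Pearson's correlation, over the 16 samples, of log2 CPM centred within each group with the mean of the 6 mast cell genes tested in both species, among 12791 genes, so it reads variation between replicates and not the effect of treatment. The 5 highest were Kat2b (0.887), Shld3 (0.873), Gnpda2 (0.857), Plscr4 (0.854) and Klhl15 (0.837). None is a gene of mast cells by textbook knowledge, and the samples share depth and tissue makeup with the genes compared. Measured the same way, each mast cell gene against the mean of the others gave 0.736 for Cma1, 0.7 for Fcer1a, 0.660 for Cpa3, 0.598 for Ms4a2, 0.113 for Hdc and -0.209 for Kit. Hdc and Kit ran with the others in spiny mouse (0.774 and 0.805 over 8 samples) and not in mouse (-0.339 and -0.484 over 8 samples), a difference that was not tested. The mouse values include untreated replicate 2, where Kit was the highest of its group and Cpa3 and Cma1 the lowest. All correlations are given only with that sample.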

How the data were processed

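Polyadenylated RNA of 16 skin samples was sequenced from stranded libraries, per the labels' protocols. The authors deposited raw counts of read pairs per gene, 1 table for each species. Per the file headers, featureCounts 2.0.3 counted pairs with both ends mapped, on GRCm39 with Ensembl 108 for mouse and on AcoCah2 for spiny mouse, without strand, multi-mapping or overlap options. Pairs overlapping several genes, on either strand, were thus not counted. Trim Galore, HISAT2 and the build GRCm39 stand in the submitters' processing notes for all samples, although the spiny mouse header names AcoCah2. Gene lengths, used for CPM per kb, are another deposited column.

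Mouse symbols came from GENCODE M39 by identifier (56236 named, 744 without). Counts were filtered with filterByExpr, scaled with TMM and tested in edgeR 4.0.16 (R 4.3.3) within each species, treated over untreated, without a block. The interaction was fitted over the 13656 symbols that occur once per table and pass both filters. The SE is the log2 fold change over the square root of F, and the scripts were tested on simulated data. Fold changes of genes named come from these fits. No replicate pair agreed within sampling noise (chi-square per degree of freedom of at least 11.35), so all 16 samples were kept. Alternatives were DESeq2 1.42.0 (its test, or its size factors in edgeR), upper-quartile factors, library size alone, 2 other low-count filters, a replicate block and leaving out each sample.

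The mast cell genes, the further lists and the tests were chosen with earlier results of these data known. Named genes are all 10 members, up to 3 called genes of each further list and species with the largest change, defining markers of other cells that bear on a member, and the 5 genes of most similar pattern among those whose average log2 CPM is 0 or more in each species. Gata2, Kitl, Mrgprx2 and the Mrgprb genes other than Mrgprb2 were named after their values were seen. Of the genes this rule takes, 1 is not reported here. Spiny mouse coordinates are those of the deposited table.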

Additional observations from a re-analysis of the deposited data

Results flagged for a closer look

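Kit in untreated mouse replicate 2, at 25.5 CPM, lay further from the other 3 samples of its group than Dixon's 95% limit for 4 samples allows. It was the only such sample among the 32 groups of 4 tested over the mast cell genes, where chance alone gives about 1 in 20. The same sample held 115 CPM of melanocyte markers and 2240 CPM of hair follicle markers, and the part of either in its Kit level was not tested.

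For 4 genes the effect of treatment differed between the species by the interaction test of edgeR. The log2 fold change in spiny mouse minus that in mouse was 1.08 for Cma1, 1.58 for Ms4a2, 1.05 for Hdc and -1.44 for Kit.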

How the results depend on the processing

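Of the mast cell genes 2 were called in mouse, and 5 (1 higher, 4 lower) under upper-quartile factors or library size alone. Leaving out single samples gave 2 to 6, the 6 without untreated replicate 2. In spiny mouse 4 were called, and leaving out single samples gave 2 to 4, the 2 without treated replicate 1. For the species difference 4 were called, and leaving out single samples gave 2 to 4, the 2 without untreated mouse replicate 3. Of 363 values of single genes under alternatives, 326 kept direction and call, 18 lost the call, 12 gained it and 7 changed sign, none of them called. Mouse Fcer1a turned to -0.12 under upper-quartile factors, -0.15 under library size, and -0.03 and -0.22 without untreated replicate 2 or 4, with values from -0.222 to 0.468 over all samples left out. The Fcer1a difference turned to -0.06 and -0.17 without untreated mouse replicate 1 or 3 (range -0.168 to 0.517), and that of Cpa3 to -0.035 without replicate 3 (range -0.035 to 0.337). The Hdc difference had an edgeR adjusted p of 0.0519 without a low-count filter. The cause of these shifts was not tested.

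Scaling moved the balance of all genes. In mouse 42.4% of called genes were higher, against 30.5% under upper-quartile factors and 28.6% under library size, which lowered the median log2 fold change by 0.205 and 0.238. For the species difference 46.4% of called genes had a more positive change in spiny mouse, against 61.2% and 66.2% under those scalings (medians 0.165 and 0.222 higher) and 36.3% without a filter.

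Replicate numbers gave no sign of pairing samples, but 4 pairs per species cannot exclude it. Same-numbered samples had mean correlations of deviations of 0.009 in mouse and -0.355 in spiny mouse. Samples of other numbers had -0.003 and 0.119, and no sample correlated best with its own number. With the number as a replicate block, calls among the mast cell genes were 2 for mouse, 2 for spiny mouse and 3 for the species difference, and 11246, 7418 and 5723 over all genes in place of 12085, 8180 and 6290. The block left spiny mouse Ms4a2 and Kit at edgeR adjusted p of 0.0667 and 0.0629, and the Cma1 difference between the species at 0.98 (edgeR adjusted p = 0.0608).

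Low counts limit mouse Tpsab1, with 3 to 16 per sample, and spiny mouse Mrgprb2, with 0 to 3. Why these counts are low was not tested.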
